A study of Mus musculus with 9 samples.

Results

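The 8 genes described here encode lysosomal proteases: Ctss, Ctsc, Ctsh, Ctsz, Ctsb and Ctsl (cysteine cathepsins S, C, H, Z, B and L), Ctsd (the aspartic protease cathepsin D) and Lgmn (legumain, an asparaginyl endopeptidase). They were picked by symbol, each had 1 row among the 53924 named rows of the files, and all 8 passed the filter on low counts with 16626 other genes. RNA was measured by bulk sequencing of mouse cerebellum in 9 libraries, 3 per group. PLX3AP mice were given 3-AP after PLX3397, 3AP mice 3-AP without it, and control mice saline. PLX3397 inhibits the receptor of CSF1, on which microglia and many macrophages depend, and 3-AP (3-acetylpyridine) is a nicotinamide analogue that damages the inferior olive and causes ataxia. All PLX3AP mice carried 3-AP as well, so PLX3397 alone was not analysed here. The sources used here do not give strain, age, sex, doses or times. Each of the 9 libraries had 740 to 1522 counts of the Y-linked gene Ddx3y and 0 to 3 of Xist, as in males. The sources also do not say whether each library came from its own animal. The spread behind each p-value is thus that of these libraries and may be technical.

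Cathepsins are made as inactive proenzymes, sorted to endosomes and lysosomes largely through mannose 6-phosphate receptors, and switched on at acid pH by each other or by themselves. Lysosomal proteases break down proteins taken up by the cell, and in antigen-presenting cells they trim the class II invariant chain and cut the endosomal Toll-like receptors. In brain, cathepsin S is a product of microglia and macrophages, whereas cathepsins B, D and L are made by neurons and glia alike. On this general knowledge, and not on these files, Ctss, Ctsc, Ctsh, Ctsz and Lgmn were set down as myeloid-restricted and Ctsb, Ctsd and Ctsl as broad.

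In GRCm38 (mm10) with the GENCODE M21 annotation, each of the 8 is a protein-coding gene. Ctss lies on chromosome 3 from 95526786 to 95556403, Ctsz on chromosome 2 from 174427493 to 174439039, and Ctsh on chromosome 9 from 90054152 to 90076089. Ctsc spans 88278085 to 88310888 on chromosome 7 and Ctsd 142375911 to 142388038 on the same chromosome. Lgmn lies on chromosome 12 from 102394084 to 102439813, Ctsl on chromosome 13 from 64359337 to 64370890, and Ctsb on chromosome 14 from 63122462 to 63145923. RefSeq promoter windows (GRCm38.p6, 250 bases before to 50 bases after a start site) were at hand for 6 of the 8, Ctsb and Ctsh not among them. The 4 shown here belong to Ctss and Ctsc, the genes with the largest differences between groups, to Ctsz, with a smaller difference, and to the broad gene Ctsd. Capitals mark matches on either strand to 3 motifs: CACGTG (the E-box read by TFEB, which drives lysosomal genes), GAGGAAG (a core read by the myeloid factor PU.1) and GAAA and GAAA with any 2 bases between them (the interferon-stimulated response element).
Ctss, chr3:95526536-95526835, plus strand: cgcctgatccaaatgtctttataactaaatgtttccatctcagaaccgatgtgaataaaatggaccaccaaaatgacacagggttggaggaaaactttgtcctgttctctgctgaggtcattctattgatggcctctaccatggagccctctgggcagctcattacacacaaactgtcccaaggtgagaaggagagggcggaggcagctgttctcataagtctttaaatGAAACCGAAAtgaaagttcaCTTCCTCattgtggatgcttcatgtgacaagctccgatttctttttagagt
Ctsc, chr7:88277835-88278134, plus strand: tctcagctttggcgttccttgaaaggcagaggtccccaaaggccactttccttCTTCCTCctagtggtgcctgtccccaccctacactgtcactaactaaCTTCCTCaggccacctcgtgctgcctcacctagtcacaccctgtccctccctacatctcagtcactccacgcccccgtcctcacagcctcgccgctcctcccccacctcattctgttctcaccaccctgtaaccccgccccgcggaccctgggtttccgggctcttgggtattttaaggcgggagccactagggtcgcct
Ctsz, chr2:174438990-174439289, minus strand: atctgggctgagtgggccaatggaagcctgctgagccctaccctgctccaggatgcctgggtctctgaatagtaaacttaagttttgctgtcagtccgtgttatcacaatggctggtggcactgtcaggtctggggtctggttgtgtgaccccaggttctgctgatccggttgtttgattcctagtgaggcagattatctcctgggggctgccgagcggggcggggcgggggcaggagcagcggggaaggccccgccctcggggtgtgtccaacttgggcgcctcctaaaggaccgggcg
Ctsd, chr7:142387778-142388077, minus strand: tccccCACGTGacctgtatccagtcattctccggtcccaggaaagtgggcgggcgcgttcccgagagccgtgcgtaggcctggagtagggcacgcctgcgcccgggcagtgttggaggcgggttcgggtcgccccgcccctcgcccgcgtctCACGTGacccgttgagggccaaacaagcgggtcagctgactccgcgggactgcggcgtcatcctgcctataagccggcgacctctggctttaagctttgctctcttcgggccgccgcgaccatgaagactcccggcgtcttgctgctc

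The Ctss window held the interferon-stimulated response element once, from -21 to -12 relative to the start site, and GAGGAAG once (printed as CTTCCTC, its reverse complement) from -1 to 6. The Ctsc window held GAGGAAG 2 times. CACGTG stood in the window of Ctsd 2 times, and the Ctsz window held none of the 3. It also stood once in the window of Ctsl and once in 1 of the 2 windows of Lgmn, but the RefSeq starts of these lie 214 and 721 bases from the nearest transcript start in GENCODE M21, so these are not shown. For the 4 shown, that distance is 0 to 8 bases, and no 2 matches overlapped. Of 32851 RefSeq windows of this length, 7.15% held CACGTG, 13.6% GAGGAAG and 3.44% the interferon-stimulated response element. A match is a string of letters and no evidence of binding.

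Libraries held 18452256 to 22358447 estimated counts, and 16634 genes were tested. Csf1r, the gene of the receptor that PLX3397 inhibits, had 13.2 to 24.8 CPM (counts scaled to library size, here with TMM factors) in PLX3AP, 51.01 to 60.8 in 3AP and 32.1 to 34.7 in control. It fell in PLX3AP against 3AP (log2 fold change -1.55, SE 0.18, edgeR adjusted p 0.000692), whereas 3AP against control (0.69, SE 0.18) did not pass (adjusted p 0.0544). In bulk tissue, fewer cells of a type and less RNA per cell cannot be told apart, here and in all results that follow. Markers of the cerebellum were present in every library, with a summed level of the 5 Purkinje cell genes of 6119 CPM or more and of the 5 granule cell genes of 2429 CPM or more. Ttr, a product of choroid plexus, ran from 11.5 to 3813 CPM and varied within each group.

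**Figure D1:**
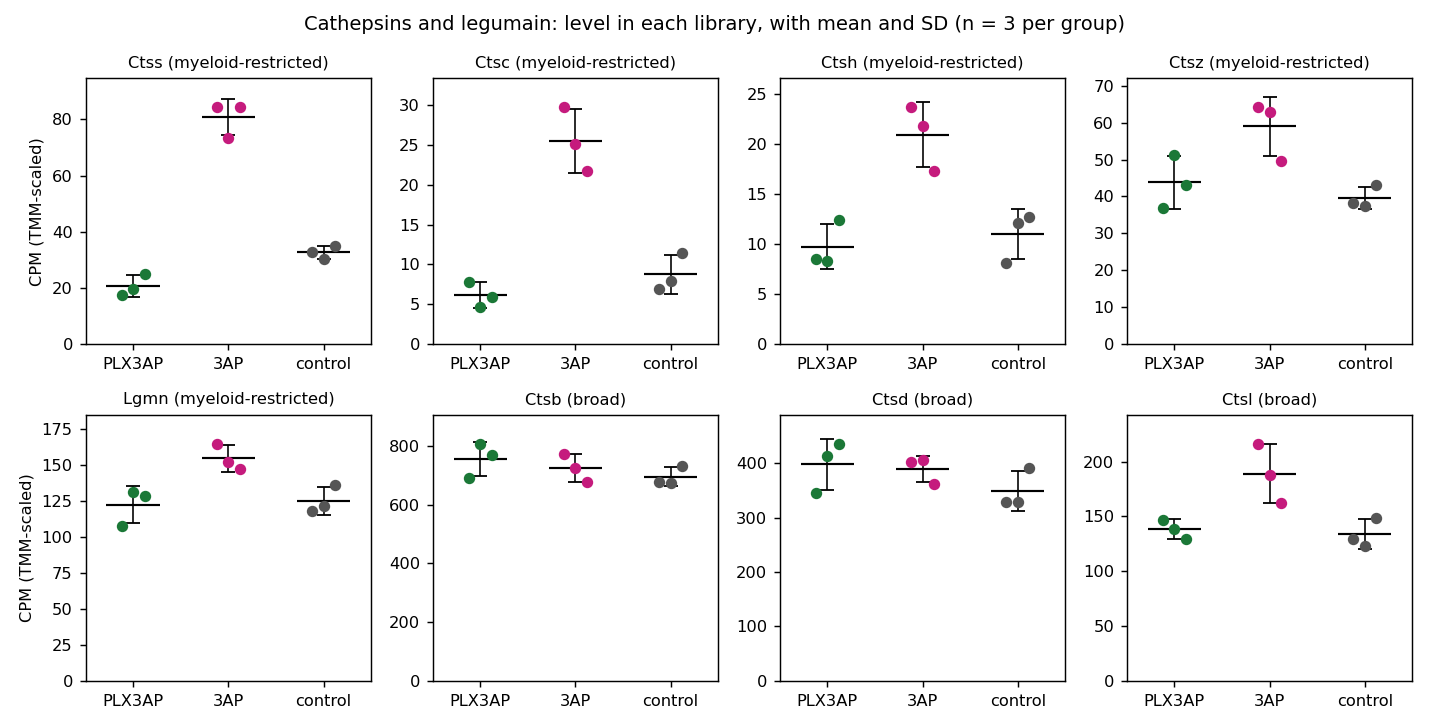
Level of each gene in CPM (y axis from 0, own scale per panel) in PLX3AP, 3AP and control, 1 point per library, with the group mean as a line and the SD as bars (n = 3 per group). Ctss, Ctsc, Ctsh, Lgmn and Ctsl stand highest in the 3 3AP libraries, and Ctsb and Ctsd overlap between all groups.

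Ctss, a protease that stays active at neutral pH, had 84.4, 73.4 and 84.4 CPM in the 3AP libraries and 33.0, 30.4 and 34.9 CPM in the control libraries. Every 3AP value lay above every control value. Ctss rose 2.47-fold in 3AP (log2 fold change 1.30, SE 0.12, n = 3 per group, edgeR adjusted p 4.58e-05). Ctsc, an aminopeptidase that activates the granule serine proteases of neutrophils and cytotoxic cells, had 29.7, 25.1 and 21.7 CPM in 3AP and 6.88, 7.91 and 11.5 CPM in control. Its groups did not overlap either, and it rose 2.91-fold (log2 fold change 1.54, SE 0.22, edgeR adjusted p 0.00137). Ctsh, an aminopeptidase with weak endopeptidase activity, had 23.8, 21.9 and 17.4 CPM in 3AP and 8.15, 12.1 and 12.8 CPM in control. It rose 1.91-fold (log2 fold change 0.93, SE 0.20, edgeR adjusted p 0.0187).

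The 2 other genes set down as myeloid-restricted had smaller differences. Ctsz, a carboxypeptidase, had 64.3, 63.0 and 49.7 CPM in 3AP against 38.3, 37.3 and 43.0 CPM in control, and rose 1.49-fold (log2 fold change 0.58, SE 0.13, edgeR adjusted p 0.0214). Lgmn, which cuts after asparagine and processes several cathepsins, had 165, 152 and 147 CPM in 3AP and 118, 121 and 136 CPM in control. The lowest 3AP library of Lgmn was above the highest control library, but the gene did not pass (log2 fold change 0.30, SE 0.09, edgeR adjusted p 0.0844). It did pass with DESeq2 (adjusted p 0.0421), with no filter on low counts (0.0311) and without PLX3AP replicate 1 (0.0287).

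Among the broad genes Ctsl, an endopeptidase, had 216, 188 and 163 CPM in 3AP and 130, 123 and 149 CPM in control. It rose 1.41-fold with no overlap of the groups (log2 fold change 0.50, SE 0.11, edgeR adjusted p 0.0152). Ctsb, the most abundant of the 8, averaged 725 ± 47.3 CPM in 3AP and 695 ± 32.4 CPM in control (SD, n = 3 each), with a log2 fold change of 0.06 and a 95% interval of -0.12 to 0.24. Ctsd averaged 390.1 ± 23.8 CPM in 3AP and 349 ± 36.7 CPM in control, with a log2 fold change of 0.16 (95% interval -0.06 to 0.38). Neither passed (edgeR adjusted p 0.769 for Ctsb and 0.469 for Ctsd), and in both genes the ranges of the groups overlapped.

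In all, 5 of the 8 rose in 3AP against control and 0 fell, where edgeR called 3.75% of all tested genes higher, 1.18% lower and 4.93% in either direction. These were 4 of the 5 myeloid-restricted genes (median log2 fold change 0.93) and 1 of the 3 broad ones (median 0.16), with a median of 0.54 over the 8 and 0.00 over all tested genes. The values of 6 did not overlap between the groups, all 6 higher in 3AP. Of all tested genes, 24.7% did not overlap, and 13.7% were so and higher in 3AP. The count of 5 changed when single libraries were left out. It was 2, Ctss and Ctsc, without control replicate 1, control replicate 2, 3AP replicate 1 or 3AP replicate 2. Calls over all genes fell as well, from 820 to between 466 and 515. In those fits Ctsh, Ctsz and Ctsl had edgeR adjusted p of 0.0521 to 0.0976. Their log2 fold changes there were 0.76 to 1.00, 0.51 to 0.56 and 0.40 to 0.50, near those of the full fit.

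**Figure D2:**
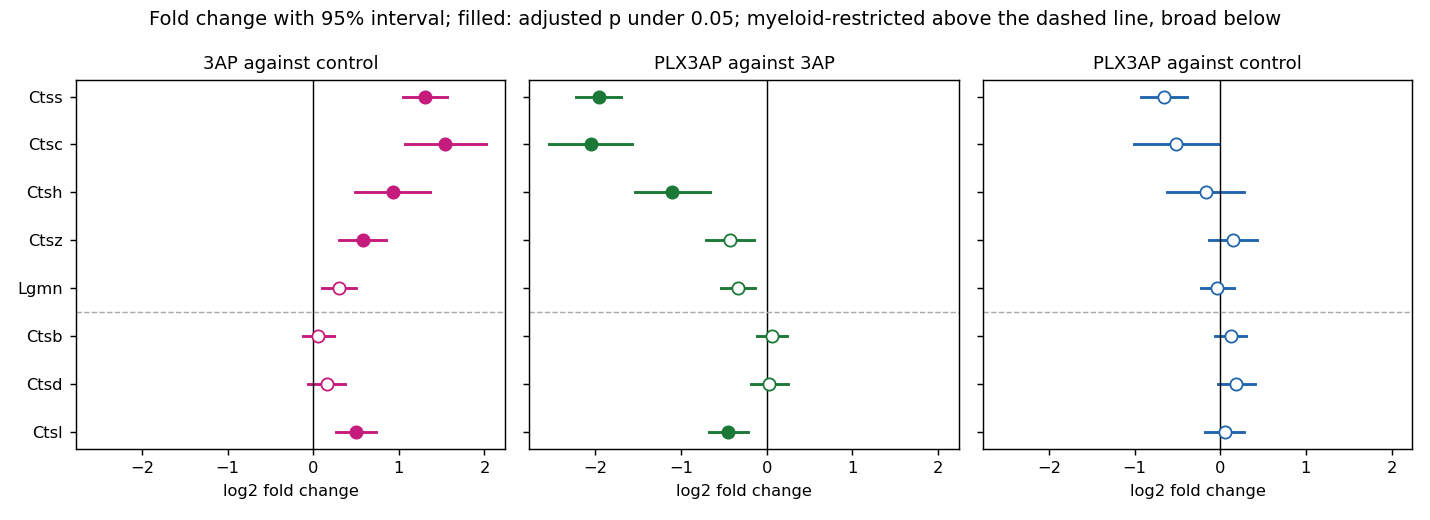
Log2 fold change (x axis) of the 8 genes with its 95% interval in 3 comparisons, where filled points passed an edgeR adjusted p of 0.05. Ctss, Ctsc and Ctsh lie farthest from 0 in the first panel (0.93 to 1.54) and in the second (-2.06 to -1.10), and no point of the third is filled.

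PLX3AP against 3AP asks what differed when PLX3397 had come before 3-AP. The comparison shares its 3AP libraries with the one above, so a high 3AP value enters both. Ctss had 17.4, 19.7 and 25.01 CPM in PLX3AP and 84.4, 73.4 and 84.4 CPM in 3AP. It fell 3.89-fold with a wide gap between the groups (log2 fold change -1.96, SE 0.12, edgeR adjusted p 8.91e-06), and ranked 2 by p among the 16634 tested genes. Ctsc had 7.85, 4.70 and 5.92 CPM in PLX3AP and 29.7, 25.1 and 21.7 CPM in 3AP, and fell 4.16-fold (log2 fold change -2.06, SE 0.22, edgeR adjusted p 0.00025). Ctsh had 8.57, 8.36 and 12.4 CPM in PLX3AP and 23.8, 21.9 and 17.4 CPM in 3AP. It fell 2.14-fold (log2 fold change -1.10, SE 0.20, edgeR adjusted p 0.00768), and these 3 genes were called under all 18 alternatives tried.

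Ctsz and Lgmn were lower in mean but did not pass. Ctsz had 37.0, 51.2 and 43.2 CPM in PLX3AP and 64.3, 63.0 and 49.7 CPM in 3AP, so that 1 PLX3AP library stood above the lowest 3AP one (log2 fold change -0.43, SE 0.13, edgeR adjusted p 0.112). Lgmn had 108, 131 and 129 CPM in PLX3AP and 165, 152 and 147 CPM in 3AP, without overlap (log2 fold change -0.34, SE 0.09, edgeR adjusted p 0.0676). Both passed with DESeq2 (adjusted p 0.048 for Ctsz and 0.0219 for Lgmn) and with no filter on low counts (0.0292 and 0.0133). Ctsz also passed without 3AP replicate 3 (0.0237) or PLX3AP replicate 2 (0.0404), and Lgmn without control replicate 3 (0.0475).

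Of the broad genes Ctsl fell 1.37-fold, with 147, 139 and 130 CPM in PLX3AP and 216, 188 and 163 CPM in 3AP (log2 fold change -0.45, SE 0.11, edgeR adjusted p 0.0315). This call was lost without 3AP replicate 1 or 2 or PLX3AP replicate 2 or 3 (adjusted p 0.0943 to 0.168). Ctsb had 692, 808 and 768 CPM in PLX3AP and 773, 723 and 679 CPM in 3AP, and Ctsd 346, 413 and 436 CPM in PLX3AP and 403, 405 and 363 CPM in 3AP. The groups overlapped in both genes. Their 95% intervals of the log2 fold change were -0.12 to 0.24 for Ctsb and -0.19 to 0.25 for Ctsd, so a fall of the size seen in Ctsl was outside both.

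In this comparison 4 of the 8 fell and 0 rose, where edgeR called 3.16% of all tested genes lower, 0.577% higher and 3.73% in either direction. These were 3 of the 5 myeloid-restricted genes (median log2 fold change -1.10) and 1 of the 3 broad ones (median 0.03). The median was -0.44 over the 8 and -0.01 over all tested genes. The values of 5 did not overlap between the groups, all lower in PLX3AP. Of all tested genes, 16.9% did not overlap, and 9.22% were so and lower in PLX3AP. The count of 4 was 3 to 5 when single libraries were left out, and 6 with DESeq2 or with no filter on low counts.

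PLX3AP against control sets mice with both agents beside mice with neither. Of the 8, 0 passed in edgeR, where 0.12% of all tested genes did. Ctss and Ctsc, 2 of the 8, had an unadjusted edgeR p under 0.05, beside 1556 of the 16634 tested genes. The count of calls was 1 with DESeq2 and 0 with limma-voom. Ctss had 17.4, 19.7 and 25.01 CPM in PLX3AP and 33.0, 30.4 and 34.9 CPM in control, and all 3 PLX3AP libraries lay below all 3 control libraries. Its log2 fold change was -0.66 (SE 0.12, 95% interval -0.92 to -0.39, edgeR adjusted p 0.0822, with 0.000352 to 0.338 over the alternatives). Ctss passed with DESeq2 (adjusted p 0.000711), with no filter on low counts (0.000352) and without PLX3AP replicate 1 (0.0495) or 3 (0.0145). Of the 8, Ctss was the 1 whose groups did not overlap, where 14.3% of all tested genes did not and 6.42% were so and lower in PLX3AP.

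Ctsc had 7.85, 4.70 and 5.92 CPM in PLX3AP and 6.88, 7.91 and 11.5 CPM in control (log2 fold change -0.51, SE 0.23, edgeR adjusted p 0.519). Its groups overlapped, and the 95% interval of -1.01 to -0.02 is wide. Ctsh averaged 9.78 ± 2.28 CPM in PLX3AP and 11.02 ± 2.499 CPM in control (log2 fold change -0.17, 95% interval -0.62 to 0.28). On TPM the Ctsh difference had the opposite sign, without passing. Ctsz (43.8 ± 7.11 CPM in PLX3AP and 39.5 ± 3.04 CPM in control) and Lgmn (123 ± 12.95 CPM in PLX3AP and 125 ± 9.72 CPM in control) had log2 fold changes of 0.15 and -0.03. Those of Ctsb, Ctsd and Ctsl were 0.12, 0.19 and 0.05, each with an SE of 0.08 to 0.11. The widest bound of these 5 intervals was 0.43, for Ctsz, so larger rises or falls lay outside them. The 8 had a median of 0.01, with -0.17 in the 5 myeloid-restricted and 0.12 in the 3 broad genes, and 0.00 over all tested genes.

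Levels can be set between genes only per transcript length, for which the TPM of the authors' files were used. Ctsb led in every group, with 554 ± 69.7 TPM in PLX3AP, 540 ± 37.2 in 3AP and 494 ± 24.0 in control (SD, n = 3 each). Ctsd came next with 345 ± 56.4 TPM in PLX3AP, 339.8 ± 22.7 in 3AP and 290.3 ± 17.2 in control, and then Ctsl with 179 ± 1.54, 238 ± 31.5 and 159 ± 1.07 TPM in the same groups. Lgmn followed, and Ctsh and Ctsc closed the order in each group. The one change in the order was that of Ctss and Ctsz. Ctss had 0.416 to 0.625 times the TPM of Ctsz in PLX3AP libraries, 1.26 to 1.83 times in 3AP libraries and 0.876 to 0.928 times in control libraries. No 2 neighbours in the order overlapped within any group.

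**Figure D3:**
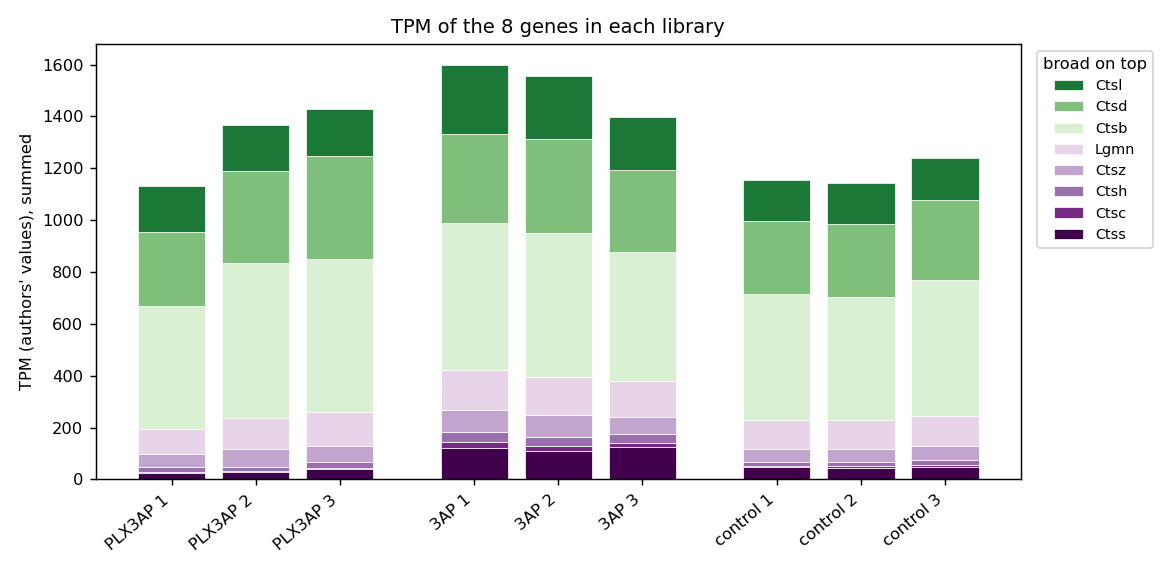
TPM of the 8 genes stacked per library (y axis from 0, 3 libraries each of PLX3AP, 3AP and control). Ctsb and Ctsd make up most of every bar, and the segment of Ctss is thickest in the 3AP libraries, at 7.13 to 8.99% of the sum.

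Summed over the 8, the level was 1309 ± 156 TPM in PLX3AP, 1517 ± 106 in 3AP and 1179 ± 51.3 in control. The 5 myeloid-restricted genes gave 195 to 258 TPM of it in PLX3AP, 381 to 422 in 3AP and 229 to 246 in control, and the 3 broad genes 937 to 1169, 1016 to 1177 and 913 to 992 in the same groups. In the myeloid-restricted sum the 3AP libraries therefore stood apart from both other groups. In the broad sum they also stood above every control library, but overlapped with PLX3AP. Lgmn was the largest part of the myeloid-restricted sum, with means of 116 TPM in PLX3AP, 146 in 3AP and 114 in control. Ctsz averaged 60.2, 81.1 and 52.1 TPM in the same groups, and Ctss 30.8, 120 and 46.6. The sum and the share taken from it describe the list set down, and were not tested as a measure of myeloid cells. The myeloid-restricted share of the 8 was 17.2 to 18.1% in PLX3AP, 25.5 to 27.3% in 3AP and 19.8 to 20.1% in control. The share of Ctss was 2.12 to 2.73% in PLX3AP, 7.13 to 8.99% in 3AP and 3.81 to 4.19% in control. That of Ctsb was 41.4 to 43.6% in PLX3AP, 35.4 to 35.7% in 3AP and 41.6 to 42.1% in control, although its own level did not pass a test.

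Markers of microglia moved in the same directions as Ctss, Ctsc and Ctsh. The summed level of 16 microglia markers, Csf1r among them, was 80.0, 98.2 and 135 CPM in PLX3AP, 398, 323 and 323 CPM in 3AP and 161, 148 and 172 CPM in control, with none of the 16 at 0 in any library. Of the 16, 8 rose in 3AP against control, 10 fell in PLX3AP against 3AP and 0 passed in PLX3AP against control (median log2 fold changes 0.80, -1.53 and -0.65). In that last comparison 10 of the 16 had an unadjusted edgeR p under 0.05, beside 1556 of the 16634 tested genes. DESeq2 called 3 of the 16 and limma-voom 0. The part of the microglia in the results above was not tested.

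Divided by this marker sum, Ctss was nearly level, at 0.186 to 0.217 in PLX3AP, 0.212 to 0.261 in 3AP and 0.203 to 0.205 in control. Ctsc was at 0.0439 to 0.0982, 0.0673 to 0.0778 and 0.0426 to 0.0666 in the same groups. In both genes the PLX3AP range met the 2 others, and the 3AP range lay just above that of control. Lgmn, by contrast, was at 0.955 to 1.35 in PLX3AP, 0.414 to 0.472 in 3AP and 0.732 to 0.821 in control, with 3 separate ranges. Ctsz was at 0.321 to 0.521, 0.154 to 0.195 and 0.237 to 0.252 in these groups, and Ctsb at 5.70 to 8.66, 1.94 to 2.24 and 4.20 to 4.55. Lgmn and Ctsz thus varied with the marker sum less than in proportion, as the 3 broad genes did. Their levels here do not bear out the name myeloid-restricted, which stands only for the list set down. Ctsh lay between, at 0.0851 to 0.107 in PLX3AP, 0.0538 to 0.0678 in 3AP and 0.0505 to 0.0819 in control.

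**Figure D4:**
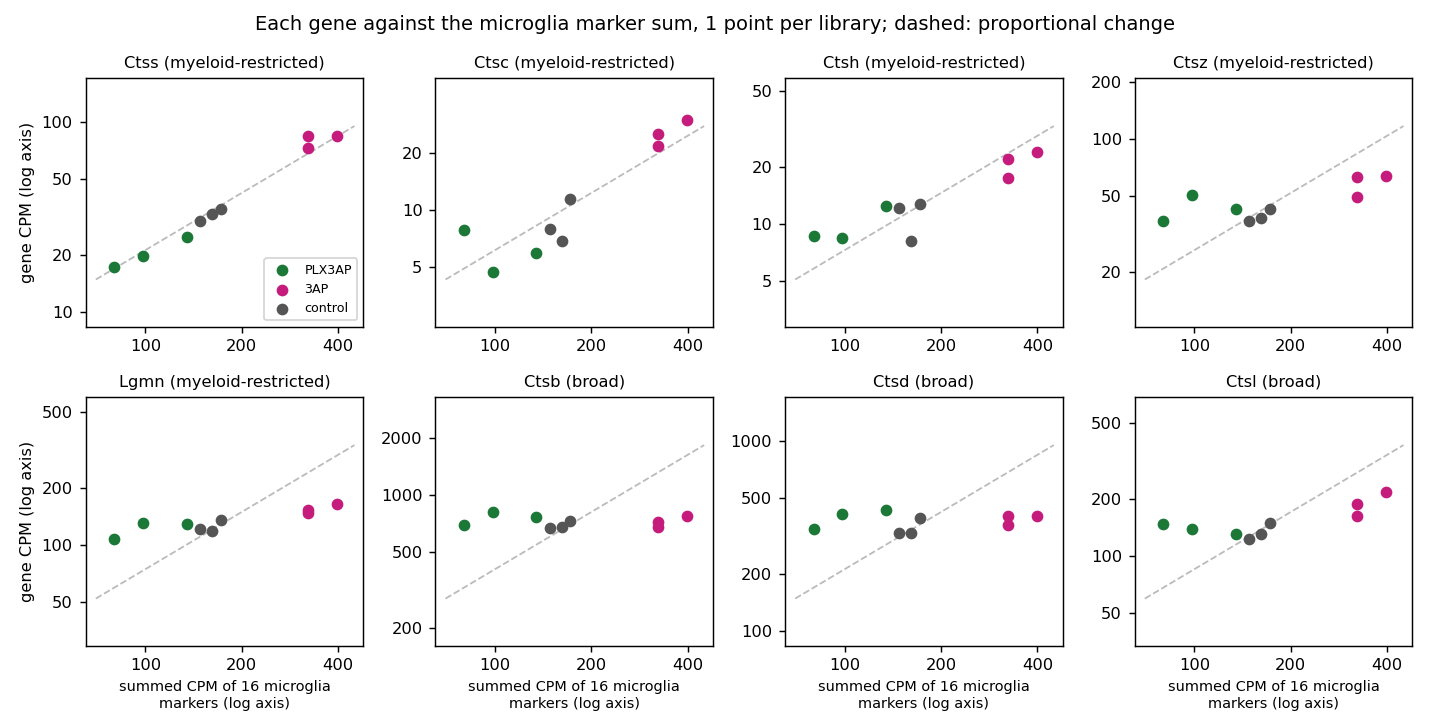
CPM of each gene (y axis) against the summed CPM of 16 microglia markers (x axis), both log scales, 1 point per library of PLX3AP, 3AP and control, with a dashed line for a proportional change. Ctss and Ctsc lie near the dashed line, and Ctsb and Ctsd stay flat while the marker sum runs from 80.0 to 398 CPM.

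Markers of other cells moved as well. Border-associated macrophage markers summed to 3.73 to 6.92 CPM in PLX3AP, 36.2 to 39.1 in 3AP and 24.0 to 26.3 in control, with at most 1 of 8 at 0 in a library. Of the 7 tested, 7 fell in PLX3AP against 3AP, 5 fell in PLX3AP against control and 2 rose in 3AP against control. Blood leukocyte markers summed to 1.70 to 2.63 CPM in PLX3AP, 9.86 to 24.6 in 3AP and 1.52 to 4.39 in control, with up to 7, 3 and 6 of 12 at 0 in a library of these groups. Of the 6 tested, 4 rose in 3AP against control and 5 fell in PLX3AP against 3AP. Endothelial markers summed to 237 to 241 CPM in PLX3AP, 351 to 387 in 3AP and 232 to 240 in control, with 4 of 6 higher in 3AP against control and 4 of 6 lower in PLX3AP against 3AP. Meningeal fibroblast markers summed to 69.1 to 83.7 CPM in PLX3AP, 112 to 159.6 in 3AP and 79.4 to 97.8 in control (1 of 5 higher in 3AP against control, 3 of 5 lower in PLX3AP against 3AP). Astrocyte markers split in both comparisons (1 of 8 higher and 2 lower in 3AP against control, then 1 higher and 1 lower in PLX3AP against 3AP). Of the 21 choroid plexus, oligodendrocyte, Purkinje and granule cell markers edgeR called 0 in any comparison. Granule cell markers summed to 2800 to 3176 CPM in PLX3AP, 2429 to 2811 in 3AP and 2940 to 3186 in control, so 3AP lay below control. The sums of the other cell types of the 21 overlapped between 3AP and control. In 3AP against control 6 of the 21 had an unadjusted edgeR p under 0.05, beside 2826 of the 16634 tested genes. Of the 6, 3 were of granule cells and 3 of oligodendrocytes (list medians of the log2 fold change -0.23 and -0.41). DESeq2 called 3 of the 21, all of oligodendrocytes, and limma-voom 0. In PLX3AP against 3AP, 3 of the 21 had an unadjusted edgeR p under 0.05, beside 2005 of all tested genes. DESeq2 called 1 of the 21, also of oligodendrocytes, and limma-voom 0. In PLX3AP against control the unadjusted count was 1, beside 1556 of all tested genes, and both tools called 0. The part of these cells in the levels of the 8 genes was not tested.

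The genes most like each called member were sought by the root-mean-square distance of log2 CPM over the 9 libraries, each gene centred on its own mean. Nearest to Ctss were Tyrobp at 0.114, Cyth4 at 0.153 and Inpp5d at 0.168. Nearest to Ctsc were Gimap4 at 0.185, Ctla2a at 0.209 and Ikzf1 at 0.215. No gene was named for more than 1 member. For Ctsh these were Hspg2 at 0.138, Piezo1 at 0.141 and Tmem176b at 0.145. For Ctsz they were Mt3 at 0.0791, Sparc at 0.0812 and Ly6e at 0.0816, and for Ctsl they were Rab13 at 0.0819, Tram2 at 0.0991 and Smox at 0.1005. Between members the distance was 0.337 for Ctss and Ctsc, 0.143 for Ctsz and Lgmn, 0.0781 for Ctsb and Ctsd, and 0.848 for Ctss and Ctsb. A gene that varies little lies close to many others, so distances are to be read within a gene.

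Few of the other lysosomal genes were called, and most changed little. The called shares below rest on 5 and 4 genes, and whether they exceed those of all genes was not tested. Of 63 tested genes for lysosomal hydrolases, membrane proteins and the proton pump, 5 rose in 3AP against control (median log2 fold change 0.02). In PLX3AP against 3AP, 4 of the 63 fell (median 0.05). In PLX3AP against control 0 passed (median 0.07), and 0 by DESeq2 or limma-voom. There 7 of the 63 had an unadjusted edgeR p under 0.05, beside 1556 of the 16634 tested genes. The called share was 7.94% in 3AP against control, all higher, beside 3.75% of all tested genes called higher and 4.93% in either direction. In PLX3AP against 3AP it was 6.35%, all lower, beside 3.16% called lower and 3.73% in either direction. Within 0.5 of 0 on the log2 scale lay 90.5% of the 63 in the first comparison, beside 87% of all tested genes, and 92.1% in the second, beside 88.3%. Lamp1, a main lysosomal membrane protein, had a log2 fold change of -0.06 (SE 0.08) in 3AP against control. That of Tfeb, the transcription factor of lysosome formation, was 0.00 (SE 0.13).

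Among the 5 that rose in 3AP were Gusb of the hydrolases, Cd68 and Laptm5 of the membrane proteins and Tcirg1 of the proton pump. Cd68, a glycoprotein of macrophage lysosomes, averaged 2.54 ± 0.67 CPM in PLX3AP, 7.55 ± 1.7 in 3AP and 2.84 ± 0.63 in control (edgeR adjusted p 0.00499 for 3AP against control and 0.00267 for PLX3AP against 3AP). Laptm5, a membrane protein of leukocyte lysosomes, averaged 8.58 ± 2.9 CPM in PLX3AP, 27.3 ± 3.7 in 3AP and 12.6 ± 0.43 in control (edgeR adjusted p 0.00421 and 0.000337 in the same comparisons). Tcirg1 averaged 5.96 ± 0.33 CPM in PLX3AP, 9.72 ± 0.98 in 3AP and 5.54 ± 0.71 in control (0.00714 and 0.0185). Cd68, Laptm5 and Tcirg1 also fell in PLX3AP against 3AP, where Tcirg1 was lost without 3AP replicate 1 or 2 or PLX3AP replicate 2 or 3 (edgeR adjusted p 0.0573 to 0.0831). Gusb, beta-glucuronidase, rose by 0.57 on the log2 scale (SE 0.12, edgeR adjusted p 0.0145) and was lost without control replicate 1 or 3AP replicate 1 (0.0838 to 0.0862).

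**Figure D5:**
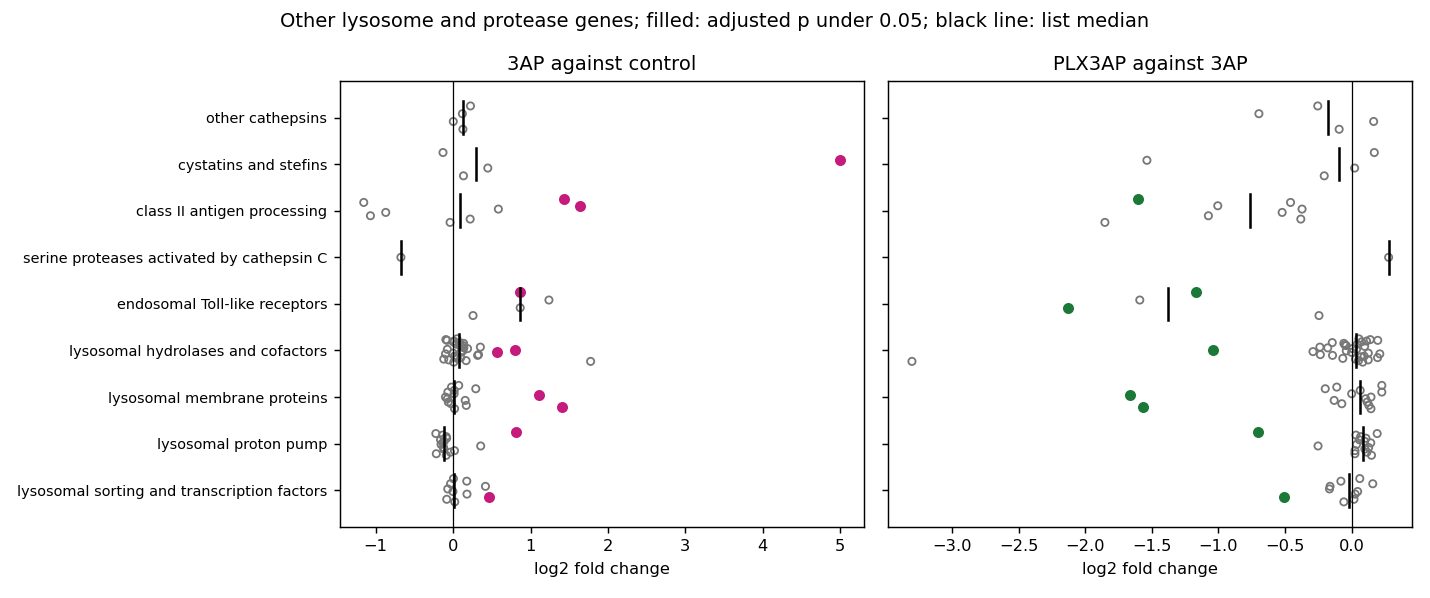
Log2 fold change of the other lysosomal and protease genes by list, for 3AP against control and PLX3AP against 3AP, with filled points at an edgeR adjusted p under 0.05 and a black line at the list's median. Most points of the hydrolase, membrane and proton pump lists lie near 0. In the first comparison 5 of 63 are filled, all higher (7.94%, beside 3.75% of all tested genes called higher). In the second 4 of 63 are filled, all lower (6.35%, beside 3.16% called lower).

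Of the 16 other cathepsin genes listed, 4 were tested (Ctsa, Ctsf, Ctsk and Ctso) and edgeR called 0 in any of the 3 comparisons. At an unadjusted edgeR p under 0.05 there were 1 in 3AP against control, 2 in PLX3AP against 3AP and 1 in PLX3AP against control. Over the 16634 tested genes these counts were 2826, 2005 and 1556. DESeq2 and limma-voom also called 0 of the 4. Ctsk, best known from osteoclasts, averaged 1.73 ± 0.15 CPM in PLX3AP, 2.81 ± 0.19 in 3AP and 2.59 ± 0.54 in control, with a log2 fold change of -0.70 (SE 0.24, edgeR adjusted p 0.189) in PLX3AP against 3AP. Ctsw of cytotoxic lymphocytes had 18 counts over the PLX3AP libraries, 29 over the 3AP libraries and 20 over the control libraries. Ctse had 1 count per group, and Ctsg and the other 9 listed genes, most of them known from placenta, had 0, where a count of 0 allows up to 3 over a group by counting error.

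Cystatins and stefins inhibit cysteine cathepsins, and 4 of the 8 listed were tested. Cst7 (cystatin F, an inhibitor of cathepsin C in leukocytes) rose in 3AP against control (edgeR adjusted p 0.00339), with 77 counts over the 3AP libraries and 2 over the control libraries. The ratio of these counts, at equal depth, was 37.8 with a 95% counting interval of 10.1 to 317. PLX3AP had 26 counts, and Cst7 passed neither against 3AP (adjusted p 0.248) nor against control (0.285). The ratio of counts at equal depth was 0.34 against 3AP (95% counting interval 0.21 to 0.53) and 12.8 against control (3.20 to 111). An unadjusted edgeR p under 0.05 was reached by 2 of the 4 in 3AP against control and 1 in PLX3AP against 3AP. In PLX3AP against control it was reached by 2. Over the 16634 tested genes these counts were 2826, 2005 and 1556. Cst3, the abundant secreted cystatin C, averaged 471 ± 49 CPM in PLX3AP, 543 ± 52 in 3AP and 495 ± 67 in control and was not called, nor were Cst6 and Cstb. Cst6 had 7.03, 8.13 and 6.73 CPM in PLX3AP, 7.85, 7.06 and 6.64 in 3AP and 4.91, 5.03 and 5.85 in control. Both treated groups of Cst6 lay above control without overlap. Of all tested genes, 13.7% lay so in 3AP, and 14.3% did not overlap in either direction between PLX3AP and control.

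Among 8 genes of class II antigen processing, where cathepsin S trims the invariant chain, Ifi30 and H2-DMb1 rose in 3AP against control. The list median log2 fold change was 0.09. An unadjusted edgeR p under 0.05 was reached by 6 of 8, beside 2826 of the 16634 tested genes. Ifi30, the thiol reductase of lysosomes, averaged 3.34 ± 0.80 CPM in PLX3AP, 10.2 ± 0.98 in 3AP and 3.79 ± 0.44 in control. It rose by 1.43 on the log2 scale in 3AP against control (SE 0.20, edgeR adjusted p 0.000796) and fell by 1.61 in PLX3AP against 3AP (SE 0.20, edgeR adjusted p 0.000362). H2-DMb1 (edgeR adjusted p 0.0395) was lost without replicate 1 or 2 of control or of 3AP, or replicate 2 or 3 of PLX3AP (0.0529 to 0.14). The class II chains were lower in mean in 3AP than in control, without passing. H2-Aa had 0.275, 0.542 and 0.477 CPM in PLX3AP, 0.884, 0.877 and 1.02 CPM in 3AP and 1.28, 1.54 and 3.02 CPM in control. In 3AP against control its log2 fold change was -1.07 (SE 0.39, edgeR adjusted p 0.166). Those of H2-Ab1 (-0.87, SE 0.39, adjusted p 0.279) and H2-Eb1 (-1.15, SE 0.45, adjusted p 0.208) were also below 0. The groups did not overlap in any of the 3 genes, nor in 24.7% of all tested genes. These 3 were picked after their values were seen. Cd74, the invariant chain itself, had 0.549, 1.36 and 2.53 CPM in PLX3AP, 6.04, 5.99 and 4.22 CPM in 3AP and 3.19, 4.62 and 8.87 CPM in control. All 3 PLX3AP libraries of Cd74 lay below those of both other groups. Of all tested genes, 9.22% lay so against 3AP and 6.42% against control. The log2 fold change of Cd74 was -1.85 (SE 0.50, edgeR adjusted p 0.0967) against 3AP and -1.89 (SE 0.50, adjusted p 0.296) against control. Of the endosomal Toll-like receptor list, whose receptors are cut by cathepsins and legumain, 4 of 5 genes were tested. Unc93b1, the chaperone of these receptors, rose in 3AP against control (log2 fold change 0.86, SE 0.19, edgeR adjusted p 0.0197), a call lost without control replicate 1 or 3 or 3AP replicate 1 or 2 (0.0561 to 0.103). In PLX3AP against 3AP, Tlr7 fell by 2.13 on the log2 scale (SE 0.33, edgeR adjusted p 0.00199) and Unc93b1 by 1.17 (SE 0.19, adjusted p 0.00311).

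Of 5 serine proteases that cathepsin C activates, Prtn3 alone was tested and it was not called. Gzma had 0 counts over the PLX3AP libraries, 8 over the 3AP libraries and 1 over the control libraries, and Gzmb had 6, 6 and 1. All 6 Gzmb counts of PLX3AP came from replicate 1, whereas the 3AP libraries had 1, 3 and 2. Among 10 tested genes of lysosomal sorting and transcription, Grn, whose product progranulin is processed in lysosomes, averaged 49.1 ± 5.4 CPM in PLX3AP, 69.6 ± 7.5 in 3AP and 50.3 ± 5.6 in control. It rose in 3AP against control (edgeR adjusted p 0.027) and fell in PLX3AP against 3AP (adjusted p 0.0198). The first call was lost without replicate 1 or 2 of control or of 3AP (adjusted p 0.114 to 0.13), and the second without replicate 1 or 2 of 3AP or of PLX3AP (0.0539 to 0.103). In PLX3AP against control edgeR called 0 of the 94 tested genes of all these lists. Of the 94, 16 had an unadjusted edgeR p under 0.05, beside 1556 of the 16634 tested genes. DESeq2 called 2 of the 94, both of class II antigen processing, and limma-voom 0.

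Some reads may be shared with neighbours, since the strandedness of the counting was not stated for these files. On the opposite strand Ctsz overlaps Nelfcd at its end, in the stretch from 174427493 to 174427502 alone. Nelfcd had 2642 counts in PLX3AP, 2495 in 3AP and 2326 in control, or 97.4, 68.8 and 97.4% of those of Ctsz. Also on the opposite strand, Ctsb overlaps Fdft1, at 7.68, 6.61 and 8.11% of the counts of Ctsb in those groups. Ctsd shares its strand with Gm49369, at 1.43, 2.15 and 1.61% of its counts. In Ctsc 4 transcripts overlap the antisense lincRNA Gm26522, which was not used here. The estimated counts of Ctsb and Ctsl were fractional in 9 libraries and those of Ctsd in 7, so part of their reads was divided between genes, and those of the other 5 genes were whole.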

How the data were processed

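Bulk RNA of mouse cerebellum was measured in 9 libraries, grouped by their labels. The submitters' processing notes name fastp, HISAT2, StringTie, RSEM and the mm10 build. Versions, annotation release, strandedness and filters were not stated there. As deposited by the authors, the count files hold expected counts (reads estimated per gene, not normalized), and 28.7 to 30.8% of the values above 0 were not whole. The TPM deposited beside them, scaled by the authors to transcript length and library total, were used only for levels between genes and in 2 alternatives.

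Counts were rounded to whole numbers and tested with edgeR 4.0.16 in R 4.3.3. Rows without a name (1884, 0.526 to 0.660% of counts) were left out, filterByExpr kept 16634 genes, and TMM factors were 0.986 to 1.02. All 9 libraries entered 1 robust quasi-likelihood fit with a term for each group. P-values (two-sided) were adjusted over the tested genes by Benjamini-Hochberg, with calls under 0.05. CPM use TMM-scaled library sizes. The SE is the log2 fold change over the square root of F. The code was tested on simulated data. Counting intervals and floors cover counting error only. Within groups the chi-square per degree of freedom was 4.83 to 28.6, so no 2 libraries agree within sampling noise.

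The members and the gene lists were chosen with earlier results of these data known. Named are all 8 genes, the tested genes of the cathepsin and cystatin lists, up to 3 called genes with the smallest p of each other pathway list and genes needed to say what a list holds, Csf1r, and the 3 nearest profiles of each called member. Some items that this rule names are not reported here. Ttr, the class II chains, Cd74 and the low-count genes of the lists were added after their values were seen. Alternatives were DESeq2 1.42.0, limma-voom and limma-trend (limma 3.58.1) on log2(TPM + 0.1) and log2(TPM + 1), other scalings, no filter, only the compared groups, a replicate block and each library left out.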

Additional observations from a re-analysis of the deposited data

How the results depend on the processing

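In 3AP against control, 5 of the 8 genes were called, and 2 to 6 when 1 library was left out (2 without control replicate 1 or 2 or 3AP replicate 1 or 2). In PLX3AP against 3AP the count of 4 ranged from 3 to 5, and was 6 with DESeq2 and with no filter (Ctsz and Lgmn added). In PLX3AP against control the count of 0 ranged from 0 to 1, with 1 (Ctss) also under DESeq2 and with no filter. Ctss and Ctsc passed under all 18 alternatives in the first 2 comparisons. Ctsh passed under 14 in 3AP against control, Ctsl under 14 and 12, Ctsz under 13 and 4, and Lgmn under 3 and 3. Of 432 values of single genes, 388 kept direction and call, 19 lost the call, 14 gained it and 11 turned sign.

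Of the 11, 0 were called. In PLX3AP against 3AP these were 3 values of Ctsd without single libraries, at -0.03, -0.0036 and -0.0437 (range over all left out -0.0437 to 0.1133). In PLX3AP against control they were Ctsh, at 0.25 and 0.23 on log2(TPM + 0.1) and log2(TPM + 1), and Lgmn, at 0.0146 on both TPM scales and above 0 without control replicate 3 or PLX3AP replicate 1 (range -0.0876 to 0.0427). They also included Ctsl, below 0 without control replicate 2 or PLX3AP replicate 1 (range -0.013 to 0.1336). The cause was not tested.

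Over all genes, edgeR called 820, 621 and 20 in the 3 comparisons. The first count was 466 to 515 without control replicate 1 or 2 or 3AP replicate 1 or 2, and the second 401 without 3AP replicate 1. The third was 110 with DESeq2, 71 with no filter, 9 on log2(TPM + 1), 8 without control replicate 1 or 2, 153, 7 and 13 without PLX3AP replicates 1, 2 and 3. Of the calls in 3AP against control 76.0% were higher, against 87.1 and 87.7% on the 2 TPM scales.

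The labels do not say that replicate numbers pair the samples, and no sign of pairing was seen. Deviations of same-numbered libraries correlated at -0.178 to 0.0734 and those of others at -0.0922 to 0.194. With 3 libraries per group this cannot exclude a weak shared effect. With the number as a replicate block 4, 3 and 0 of the 8 genes were called (Ctsz at an adjusted p of 0.0509 in the first, Ctsl at 0.0651 in the second) and 580, 504 and 10 of all genes. At this depth, 104 to 606 estimated counts lay behind each Ctsc value, and its intervals were the widest of the 8.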
